A study of Homo sapiens with 21 samples.

Results

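The circular RNAs described here were read in the bronchial epithelial line NL20 and in the lung cancer line PC-9, but in none of the 3 libraries of untreated NCI-H1975 cells. A circRNA belonged to the group when its reads summed to at least 5 over the 3 NL20 libraries and to at least 5 over the 3 PC-9 libraries, and when the 3 NCI-H1975 libraries held 0 reads of it. The members were thus chosen by their measured reads in these 9 libraries. The rule, which also left out 2 circRNAs by number, gave 520 of the 124082 circRNAs in the deposited table. The absence held for those 3 libraries but not for all NCI-H1975 cells: 434 of the 520 (83.5%) had at least 1 read in NCI-H1975 cells that were osimertinib-resistant or transfected, and 86 had no read in any of the 12 NCI-H1975 libraries. Of the 434, 44 had a single read in all. With another NCI-H1975 group at 0 in its place, the share read in the remaining groups ran from 85.9% to 88.9%.

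Libraries of purified circular RNA came from 3 human cell lines in 7 groups of 3. NL20 cells come from bronchial epithelium and are immortalized but not tumorigenic; PC-9 and NCI-H1975 are lung cancer lines labelled EGFR mutant. PC-9 was sequenced without drug and as gefitinib-resistant cells given 1 µM of gefitinib, an inhibitor of the EGFR kinase. NCI-H1975 was sequenced without drug or plasmid, as cells resistant to osimertinib, a later EGFR inhibitor, given at 1 µM, and as cells transfected with the plasmid pCMV6 or with FASN, the fatty acid synthase gene, both under 50 µg/ml G418. All groups were grown in the same serum-supplemented medium. No label names a culture or says if the resistant or transfected cells were clones or pools, so p-values measure the spread between these libraries, which may be technical.

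A circRNA forms when the splicing machinery joins the end of an exon to the start of the same or an upstream exon, a step called back-splicing, which leaves a closed ring without a cap or a poly(A) tail. Rings lack the ends that exonucleases attack and are generally more stable than the linear transcripts of the same gene. They are counted by reads that cross the back-splice junction, and many genes give several rings whose proportions differ between cell types. The table numbers its circRNAs and pairs the numbers with no host gene, coordinate or sequence, so roles, host genes, sequences and cell type markers of the members were not analysed here. As the number rises, the first library in column order that holds a read never moves back. The numbers are therefore read here as particular to these data.

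The libraries held from 95808 to 203079 reads. NCI-H1975, the group at 0 by the rule, held 457466 reads over its 3 libraries, more than the osimertinib-resistant (390279), FASN (360022) or pCMV6 (304143) cells. A floor of 3 reads over the NCI-H1975 libraries was 8.82 CPM (reads scaled to a common library size with TMM factors, the unit of all levels here), so that a circRNA below this level could give no read there. Such floors, and the intervals of ratios given below, cover counting error only, since amplified reads without molecular identifiers are not independent molecules. Osimertinib-resistant replicate 2 stood apart: the difference in counts between replicates, as chi-square over its degrees of freedom for circRNAs summing to 20 reads or more, came to 4.80 and 4.37 where it took part and lay between 2.07 and 2.68 in all remaining comparisons of replicates. The number of members read in that group, and the calls of its named members, are also given without it.

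Most members were scarce where they were read. In NL20 the median member had 8 reads over 3 libraries (20.3 CPM) and in PC-9 it had 7 (22.0 CPM). In NL20, 332 of the 520 had at most 10 reads, and in PC-9 365 did. Just inside the rule, 90 members had exactly 5 reads in NL20 and 108 exactly 5 in PC-9. Just outside it, 340 circRNAs met both floors and had 1 read in NCI-H1975, with the same medians of 8 reads in NL20 and 7 in PC-9. Only 13 members had at least 100 reads over the 6 libraries of NL20 and PC-9, and 157 were read in each of these 6. Together the members took 1.30% ± 0.052 of the reads of a NL20 library (SD, n = 3) and 1.52% ± 0.049 of those of a PC-9 library. These values chose the members and are given as a description.

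The most abundant member in NL20 and PC-9 was hsa_circ_33626. It had 44, 58 and 42 reads in NL20 and 71, 104 and 59 in PC-9, or 364.8 ± 37.1 and 731.1 ± 28.1 CPM (SD, n = 3), so its PC-9 level was 2.01 times that in NL20. Among the 9 NCI-H1975 libraries outside the rule it had 3 reads, all in pCMV6 replicate 3. hsa_circ_64037 had 24, 37 and 39 reads in NL20 and 70, 57 and 51 in PC-9, at 257.2 ± 75.7 and 581.7 ± 154.9 CPM, and had no read in any of the 12 NCI-H1975 libraries. Both were higher in every PC-9 library than in any NL20 library.

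The other 2 of the 4 most abundant members had more reads in NL20. hsa_circ_65978 had 76, 71 and 48 reads in NL20 and 36, 62 and 23 in PC-9, or 492.5 ± 82.0 and 365.8 ± 89.3 CPM (SD, n = 3), and these ranges overlapped. Its only reads in NCI-H1975 were 3 in osimertinib-resistant replicate 1. hsa_circ_15042 had 50, 55 and 52 reads in NL20 and 18, 34 and 19 in PC-9, at 401.3 ± 36.3 and 219.9 ± 31.5 CPM without overlap. Elsewhere in NCI-H1975 it was scarce, with 2, 1 and 1 reads in osimertinib-resistant cells and 4, 0 and 1 in pCMV6 cells, and none in FASN cells.

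Levels in NL20 and PC-9 ranged widely against each other although the rule set the same floor for both. By pooled CPM, 380 of the 520 lay within 2-fold of each other, 49 were at least 2-fold higher in NL20 and 91 at least 2-fold higher in PC-9. Among the 102 members with at least 30 reads over both lines, 40 lay within 2-fold, 23 were at least 2-fold higher in NL20 and 39 in PC-9. At the NL20 end stood hsa_circ_19765, with 18, 27 and 24 reads in NL20 against 0, 6 and 2 in PC-9, a ratio of 6.98. Next to it, hsa_circ_60453 had 47, 83 and 63 reads in NL20 and 6, 14 and 5 in PC-9, and the level in NL20 was 6.24 times that in PC-9. At the PC-9 end stood hsa_circ_63030, with 26, 46 and 21 reads in PC-9 against 1, 0 and 4 in NL20, a ratio of 23.0, and hsa_circ_42887, with 18, 22 and 11 in PC-9 and 1, 4 and 1 in NL20 and a PC-9 level 10.5 times that in NL20. These 4 were chosen as the extremes of this ratio, so its size and the lack of overlap between their libraries are a description, with no interval.

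**Figure D1:**
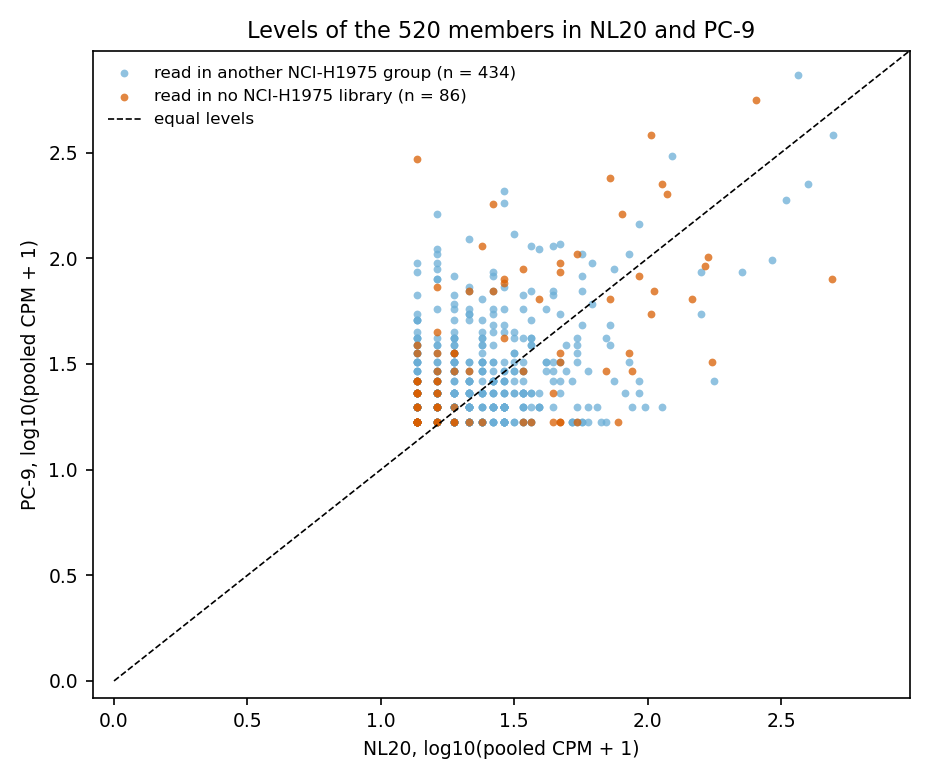
Pooled level of each of the 520 members in NL20 (horizontal) and PC-9 (vertical), as log10 of CPM + 1, with orange points for the 86 that had no read in any NCI-H1975 library and blue points for the 434 read in another NCI-H1975 group. Points crowd at the floors of the rule in the lower left, and orange points occur both there and among the most abundant members.

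**Figure D2:**
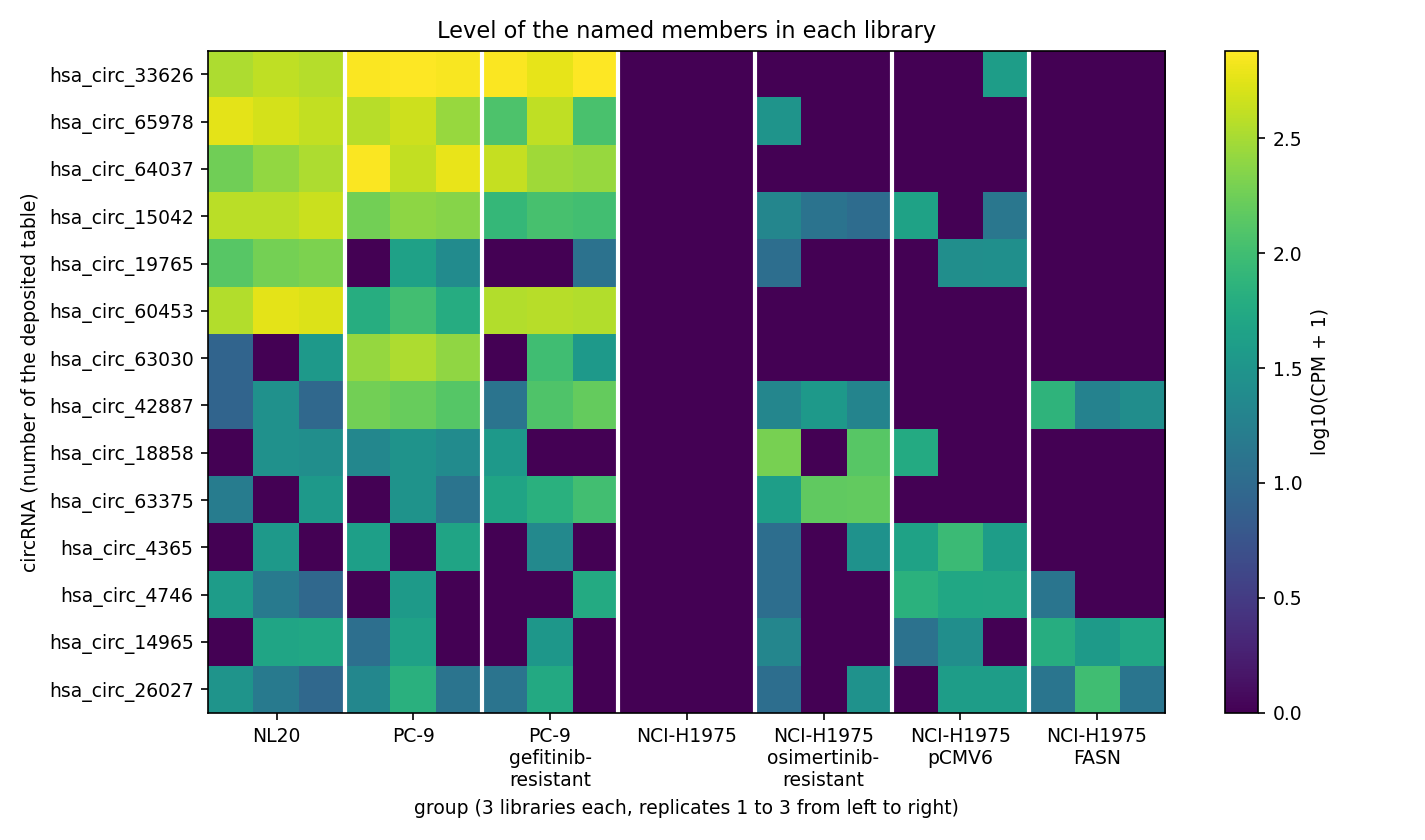
Level of the 14 named members in each of the 21 libraries, as log10 of CPM + 1, with 3 libraries per group in the order of their replicate numbers. The NCI-H1975 columns are at 0 by the rule, the 4 most abundant members at the top are read in every NL20 and PC-9 library, and the lower 6 rows hold their highest values in osimertinib-resistant, pCMV6 or FASN cells.

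Whether the other NCI-H1975 cells regained the members was asked next. Any read there is a gain by construction, so the counts are a description. Osimertinib-resistant cells had at least 1 read of 311 members (59.8%), FASN cells of 279 (53.7%) and pCMV6 cells of 271 (52.1%). Thinned to the pooled depth of the pCMV6 cells (304143 reads), the expected numbers were 292 for osimertinib-resistant and 264 for FASN cells. Without osimertinib-resistant replicate 2 the count was 277. In all, 132 members were read in exactly 1 of these groups, 177 in exactly 2 and 125 in all 3.

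The reads were few. At least 5 reads were held by 113 members in osimertinib-resistant, 78 in pCMV6 and 51 in FASN cells, and at least 10 by 30, 6 and 8. A read in each of the 3 libraries was found for 36, 18 and 21 members. Over the 9 libraries together the median member had 5 reads and the highest 38. Members took 0.358% ± 0.031 of the reads of an osimertinib-resistant library (SD, n = 3), 0.303% ± 0.021 in pCMV6 and 0.235% ± 0.014 in FASN cells, each below the share in NL20 or PC-9. By pooled CPM, 54 members stood at or above their PC-9 level in osimertinib-resistant cells, 36 in pCMV6 and 25 in FASN cells, and 14, 5 and 4 stood at least 2-fold above it.

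**Figure D3:**
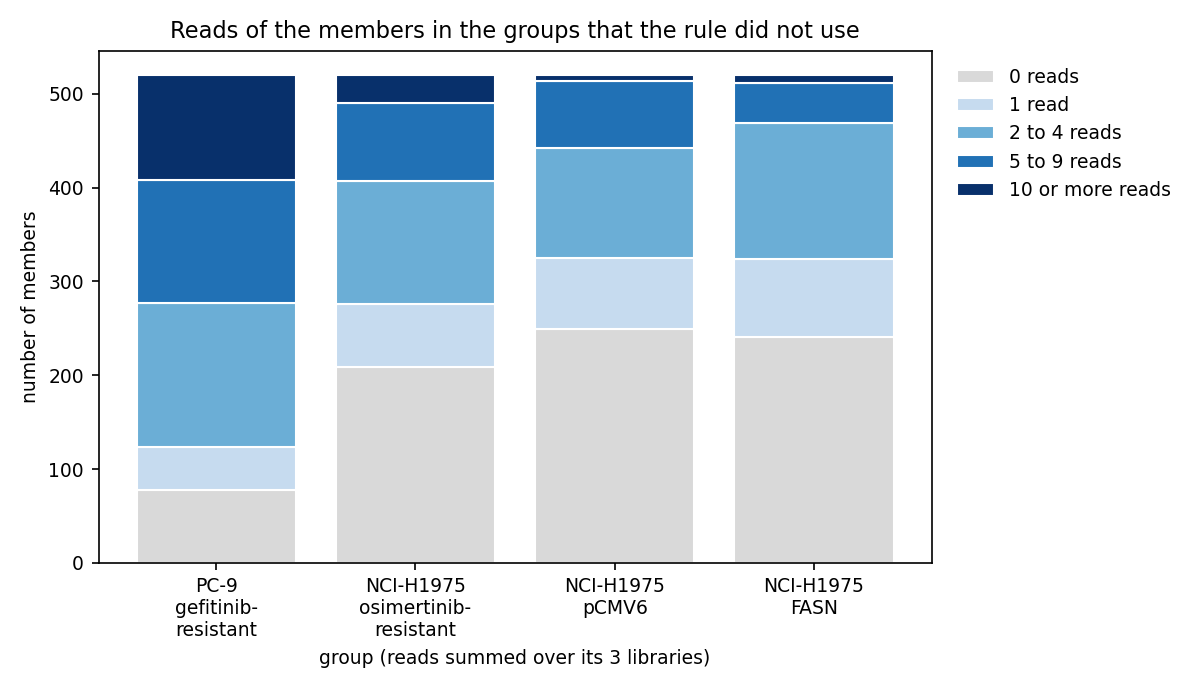
Number of the 520 members (vertical) by their reads summed over the 3 libraries of each group that the rule did not use. In gefitinib-resistant PC-9 cells 112 members had 10 or more reads, against 30, 6 and 8 in osimertinib-resistant, pCMV6 and FASN NCI-H1975 cells, where 209, 249 and 241 members had none.

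The same rule was then applied with another NCI-H1975 group in the place of the group at 0. Requiring 0 reads in osimertinib-resistant cells gave 670 circRNAs, of which 68.8% were read in NCI-H1975 cells without drug or plasmid. Requiring 0 in pCMV6 cells gave 778, with 68.0% read there, and requiring 0 in FASN cells gave 608, with 60.4%. A circRNA at 0 in any one of the 4 groups was thus read in each other group in between 52.1% and 69.3% of cases, and the members' shares lay between 52.1% and 59.8%. The group at 0 by the members' rule had the most reads of the 4. The 86 circRNAs unread in all 12 libraries are the same in each case. The share with at least 20 reads in the other 3 groups was 3.85% for the members (20 of 520), against 10.7%, 12.7% and 6.74% with osimertinib-resistant, pCMV6 or FASN cells at 0. Of the 340 circRNAs with 1 read in NCI-H1975, 78.5% were read in osimertinib-resistant, 67.9% in pCMV6 and 76.8% in FASN cells.

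**Figure D4:**
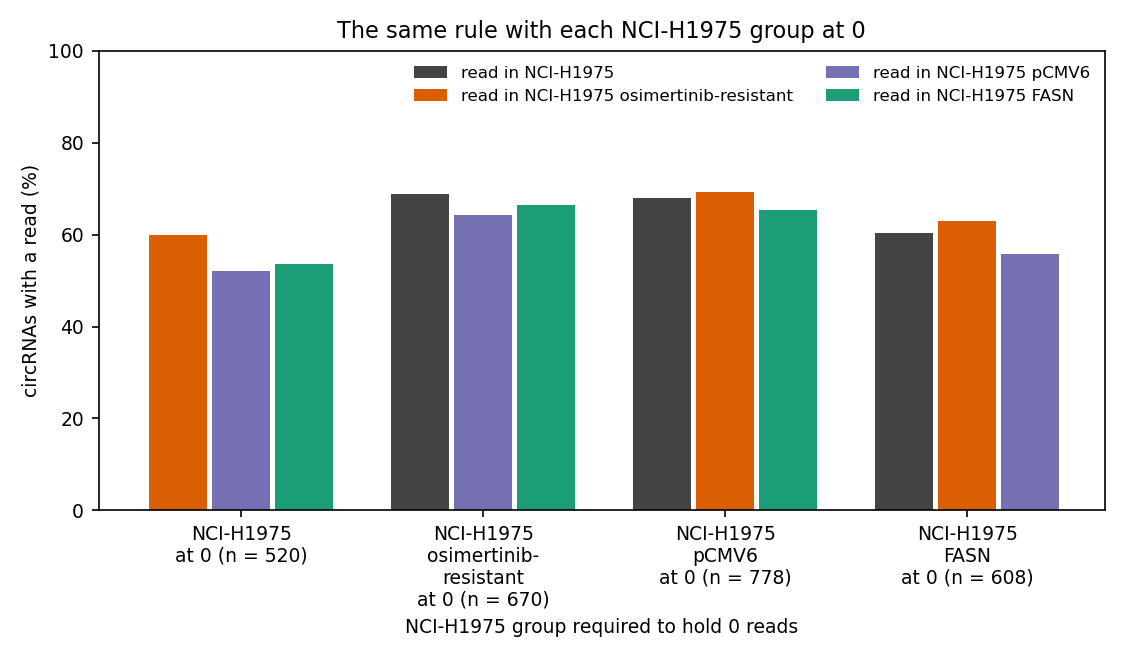
Percent of circRNAs with at least 1 read (vertical) in each of the other NCI-H1975 groups when the group named below was required to hold 0 reads, with the NL20 and PC-9 floors kept. The leftmost bars are the members, at 59.8%, 52.1% and 53.7%, and the highest bar of the other sets is at 69.3%.

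The 86 members unread in all 12 NCI-H1975 libraries included abundant circRNAs. Their median was 8 reads in NL20 and 9 in PC-9, beside 8 and 7 for the 434 read again, and their highest counts were 193 in NL20 and 178 in PC-9. Of the 102 members with at least 30 reads over NL20 and PC-9, 31 (30.4%) were unread throughout NCI-H1975. Of the 334 with at most 20 reads, 45 (13.5%) were. In gefitinib-resistant PC-9 cells 31 of the 86 had a read in each of the 3 libraries and 16 had none.

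In osimertinib-resistant cells the members with the most reads were hsa_circ_18858 and hsa_circ_63375, with 33 each. hsa_circ_63375 had 4, 13 and 16 reads there, or 114.0 ± 63.8 CPM (SD, n = 3), and 0 in every pCMV6 and FASN library. It was scarce in NL20 (2, 0 and 4 reads) and PC-9 (0, 4 and 1), and gefitinib-resistant PC-9 cells had 4, 6 and 9. Against the floor it was at least 9.18-fold higher in osimertinib-resistant than in pCMV6 cells and at least 10.3-fold higher than in FASN cells (edgeR quasi-likelihood test, adjusted p = 0.0154 and 0.010). hsa_circ_18858 had 19, 0 and 14 reads, 5, 0 and 0 in pCMV6 cells and none in FASN cells. Osimertinib-resistant replicate 2 therefore lacked it while the other libraries of the group held the highest values of this circRNA. Both circRNAs were chosen for their reads in osimertinib-resistant cells, so their ratios and p-values there are a description.

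The osimertinib-resistant, pCMV6 and FASN libraries did not enter the rule, and differences among them were tested. Of the 520 members, 138 passed the filter on low counts and were tested. hsa_circ_63375 was the only member called between osimertinib-resistant and pCMV6 cells, and it was higher in the former, where 1.06% of all 9175 circRNAs tested were called higher and 0.774% lower (edgeR quasi-likelihood test, adjusted p under 0.05). Against FASN cells 4 members were called, all higher in osimertinib-resistant cells, with a background of 1.34% higher and 1.16% lower. They were hsa_circ_63375, hsa_circ_18858 (at least 10.3-fold higher, edgeR adjusted p = 0.0196) and a further 2 with 22 and 18 reads in osimertinib-resistant cells and 0 in FASN cells. All 4 had 0 reads in FASN cells, and hsa_circ_63375 also had 0 in pCMV6 cells. They could pass the filter only through groups where they are read, so these calls are no support. Between FASN and pCMV6 cells edgeR and DESeq2 called 0 members, where edgeR called 0.196% of all circRNAs tested higher and 0.12% lower. DESeq2 gave no adjusted p for 129 of the 138. At an unadjusted p under 0.05 edgeR had 22, of which 20 were lower and 2 higher in FASN cells, and DESeq2 had 12. The share of all circRNAs at that unadjusted threshold was not counted, so neither these counts nor their direction is a result.

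Most of these calls were lost with a library left out, also a library with 0 reads of the circRNA, while the fitted change stayed large. The fitted log2 change, which depends on the prior count because a group is at 0, was 6.54 for hsa_circ_63375 and between 6.26 and 6.95 with a library left out, and 6.48 for hsa_circ_18858 and between 5.80 and 7.07. The fits with a library left out also tested more members than 138, up to 246. The call of hsa_circ_63375 against pCMV6 cells held in 1 of 6 fits that left out a library, without osimertinib-resistant replicate 1, where the edgeR adjusted p was 0.0114. It was 0.0641 and 0.0842 without osimertinib-resistant replicate 2 and 3, and 0.102, 0.097 and 0.0843 without pCMV6 replicate 1, 2 and 3. Against FASN cells its call also held without osimertinib-resistant replicate 1 alone (edgeR adjusted p = 0.00922), at 0.0543 and 0.0628 without replicate 2 and 3 of that group and at 0.0795, 0.102 and 0.0785 without FASN replicate 1, 2 and 3. That of hsa_circ_18858 held without osimertinib-resistant replicate 2 and was lost without each of the other 5, with an edgeR adjusted p of 0.159 and 0.0866 without osimertinib-resistant replicate 1 and 3 and of 0.11, 0.141 and 0.11 without FASN replicate 1, 2 and 3.

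In pCMV6 cells hsa_circ_4365 and hsa_circ_4746 had the most reads, 14 each. hsa_circ_4746 had 6, 4 and 4 reads there, or 57.1 ± 9.3 CPM (SD, n = 3), against 1, 0 and 0 in both FASN and osimertinib-resistant cells, a ratio of 15.8 to FASN cells (95% interval 2.40 to 666). hsa_circ_4365 had 4, 7 and 3, none in FASN cells and 1, 0 and 3 in osimertinib-resistant cells. In FASN cells the highest were hsa_circ_14965, with 5, 4 and 4 reads, and hsa_circ_26027, with 1, 11 and 1, so that FASN replicate 2 held most reads of the latter. None of these 4 was called, and 2 of them, hsa_circ_4365 and hsa_circ_14965, did not pass the filter. For hsa_circ_4746 between FASN and pCMV6 cells the edgeR adjusted p was 0.607. These 4 were chosen for their reads in these groups, so their ranks and ratios there are a description. The interval takes no account of that choice.

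The PC-9 side of the rule was followed into gefitinib-resistant PC-9 cells, whose libraries the rule did not use. They held 442 of the 520 members (85.0%), with a median of 4 reads, and 164 members were read in all 3 libraries. Members took 1.10% ± 0.039 of the reads of a gefitinib-resistant library (SD, n = 3). The 4 most abundant members were read in every library of this group. hsa_circ_33626 had 63, 54 and 66 reads (692.4 ± 87.2 CPM), near its PC-9 level, and hsa_circ_64037 had 36, 27 and 24 (329.8 ± 80.3 CPM). hsa_circ_65978 had 10, 37 and 10 reads, with most of them in replicate 2, and hsa_circ_15042 had 7, 10 and 9.

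Gefitinib-resistant PC-9 cells were then compared with the mean of the osimertinib-resistant, pCMV6 and FASN NCI-H1975 cells, over 12 libraries that the rule did not use. The line and the drug or plasmid change together here and cannot be told apart. hsa_circ_33626 was at least 67.0-fold higher than in osimertinib-resistant cells, at least 62.9-fold higher than in FASN cells and higher than in pCMV6 cells by a ratio of 55.9 (95% interval 18.8 to 274). hsa_circ_64037 was at least 31.9-fold higher than in osimertinib-resistant, 29.9-fold than in FASN and 26.6-fold than in pCMV6 cells. Against the mean of these groups the adjusted p was 4.16e-56 for hsa_circ_33626 and 2.03e-30 for hsa_circ_64037 (edgeR quasi-likelihood test). For each of these circRNAs, every gefitinib-resistant library lay above all 9 NCI-H1975 libraries. Both passed the filter on low counts only through groups where they are high. They also had the smallest adjusted p of the members in this comparison, so these p-values are a description and no support.

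Of the 138 members tested, 74 were called higher in gefitinib-resistant PC-9 cells and 0 lower in this comparison, in which 13.6% of all circRNAs tested were called higher and 9.08% lower (edgeR quasi-likelihood test, adjusted p under 0.05). Of the 86 unread throughout NCI-H1975, 29 were tested and all 29 were called. With no read in NCI-H1975 they could pass the filter only through groups where they are high, so that count is no support. The other 45 calls were of members with a read in at least 1 of the 3 groups. Some of these had only 1 read over the 9 libraries and likewise passed the filter through groups where they are high. The count of 45 is therefore no support either. A member could pass the filter through its reads in PC-9 or NL20 libraries alone, so this share does not describe the 382 that were not tested. Without the filter, edgeR called 65 of the 520 (12.5%) higher and 0 lower, against 0.65% higher and 0.228% lower over the whole table, and higher for 5.22% of the 8313 circRNAs that met both floors and were read in NCI-H1975. Of these 65, 56 were among the 74, and most circRNAs of the whole table were too scarce for the filter. Every gefitinib-resistant library lay above all 9 NCI-H1975 libraries for 65 members (12.5%), and for 6.10% of those 8313 circRNAs. The rule chose the members by reads in untreated cells of the same lines, so these shares are a description.

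Sizes were given by pooled CPM with a floor of 3 reads for a side at 0. A ratio could be formed for 415 members, and the other 105 had at most 3 reads on both sides. With this floor, gefitinib-resistant PC-9 cells counted as higher for 332 of the 415 (80.0%), with a median ratio of 2.54. For the 8162 of the 8313 that had a ratio, the values were 52.0% and 1.03. Both shares lean upward. The floor was 11.3 CPM over the 3 gefitinib-resistant libraries, above the level of a few reads over the 9 NCI-H1975 libraries. In gefitinib-resistant cells 37 of the 415 and 262 of the 8162 were at the floor. Some of the 37 counted as higher there although only the NCI-H1975 side held reads. At least 2-fold higher in the NCI-H1975 groups were 19 members, a count that the same floor keeps low. The ratios are a description for the same reason as the shares above.

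**Figure D5:**
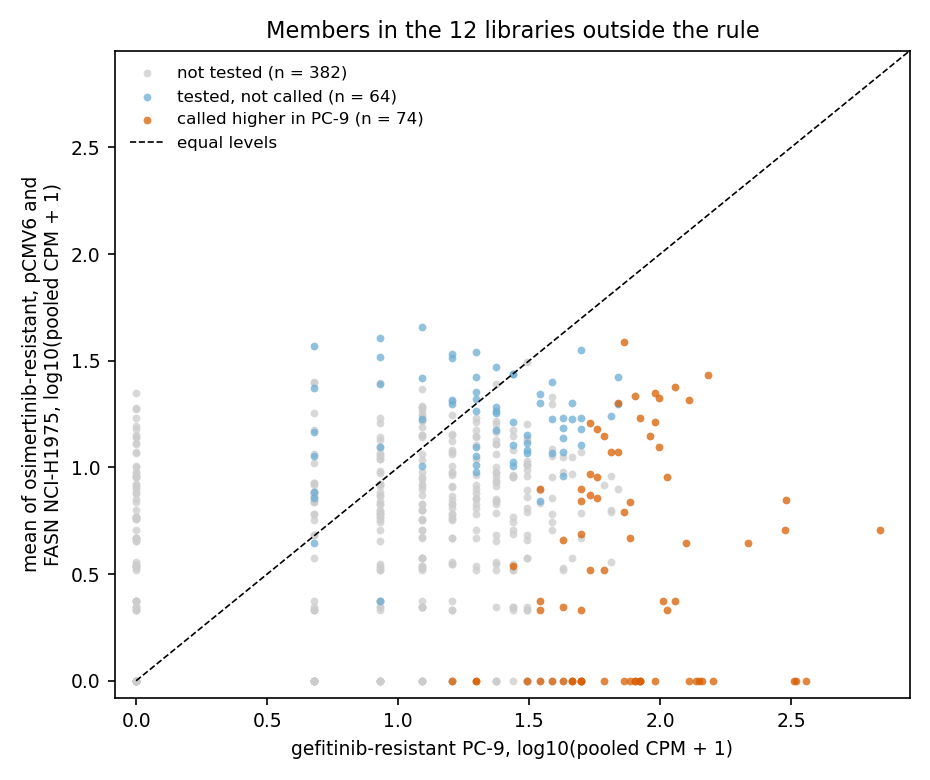
Pooled level of each member in gefitinib-resistant PC-9 cells (horizontal) and mean pooled level in osimertinib-resistant, pCMV6 and FASN NCI-H1975 cells (vertical), as log10 of CPM + 1. Orange points are the 74 called higher in PC-9, blue points the 64 tested and not called, and grey points the 382 not tested, and orange points gather below the line of equal levels.

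Between PC-9 and gefitinib-resistant PC-9 cells 1 member was called. The PC-9 reads entered the rule, and this member was also named for its high ratio of NL20 to PC-9, so the comparison is a description and its call is no independent evidence. hsa_circ_60453 had 6, 14 and 5 reads in PC-9 and 30, 34 and 31 in gefitinib-resistant cells, or 74.5 ± 23.9 against 358.3 ± 12.4 CPM (SD, n = 3). All 3 resistant libraries lay above all 3 others, at a level nearer that of NL20 (490.2 ± 119.6 CPM), and no NCI-H1975 library held a read. The fitted log2 change was 2.21 ± 0.54 (SE). It was the only member that edgeR called, with 0 called lower, while 0.73% of all circRNAs tested were called higher and 0.621% lower. The log2 change was 2.06 without PC-9 replicate 1, 2.07 without PC-9 replicate 3 and 2.18 without the filter on low counts, though the call was lost in each of these, and the call held in the other 4 fits that left out a library.

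No other named member was called. The following values are a description for the same reason. hsa_circ_63030 had 26, 46 and 21 reads in PC-9 and 0, 9 and 3 in gefitinib-resistant cells, or 284.6 ± 45.0 against 44.2 ± 50.1 CPM (SD, n = 3), without overlap. It was named for its high ratio of PC-9 to NL20, and so for high PC-9 reads. hsa_circ_63375 had the opposite order, with 0, 4 and 1 reads in PC-9 and 4, 6 and 9 in gefitinib-resistant cells, and all resistant libraries lay above all PC-9 libraries at a ratio of 4.56. hsa_circ_15042 stood at 219.9 ± 31.5 and 97.8 ± 14.3 CPM, a ratio of 2.27. For hsa_circ_33626 the ratio of PC-9 to gefitinib-resistant cells was 1.07.

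Summed over the members, the pooled CPM of gefitinib-resistant cells was 0.697 of that in PC-9. The rule set a floor on the PC-9 reads alone of these groups, so the direction of this ratio is no finding. The same sum was 0.711 for the 340 circRNAs with both floors and 1 read in NCI-H1975, and 0.942 for all 8313 read there, which were more abundant (median 14 reads in PC-9). In gefitinib-resistant cells 78 members (15.0%) were unread, beside 10.9% of the 340 and 3.72% of the 8313. The members unread there had at most 21 reads in PC-9, and 5 had at least 10. All gefitinib-resistant libraries lay above all PC-9 libraries for 9 members (1.73%) and below them for 41 (7.88%), against 5.38% and 10.4% of the 8313.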

How the data were processed

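Reads of circular RNA were counted in 21 libraries. Per the file headers and values, the authors deposited 1 table of whole-number counts per circRNA, without normalization. Per the submitters' processing notes, HISAT2 and DESeq2 and the build hg38 were used, with no version or role stated. Which program called the circRNAs, with which filters and annotation, is not given in the sources used here, and these decide which junctions are counted. Each column was matched to a sample by the code in its title. The members, tests and alternatives were chosen with earlier results of these data known.

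The tests used edgeR 4.0.16 under R 4.3.3, where filterByExpr (minimum count 5, minimum total 15) kept 9175 circRNAs, 138 of them members. TMM scaling and 1 quasi-likelihood model of the 7 group means over all 21 libraries gave 5 comparisons, adjusted by Benjamini and Hochberg over all circRNAs tested, with calls at an adjusted p under 0.05. SE is the log2 change divided by the square root of F. CPM use the TMM-scaled totals of the circRNAs tested, and pooled CPM use the reads and totals of 3 libraries together. A group at 0 was given a floor of 3 counts over its libraries. Ratios have 95% exact conditional intervals. Named were the 4 members most abundant in NL20 and PC-9, the 2 extremes of their ratio each way among members with at least 30 reads, the 2 with most reads in each other NCI-H1975 group, and up to 2 called each way in a comparison, because the table gives no gene names.

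On simulated data with 200 of 7629 circRNAs changed, the code recovered 47% of 4-fold and 8% of 2-fold changes between gefitinib-resistant and other PC-9 cells, and 65% and 19% against the mean of the 3 NCI-H1975 groups. The changed circRNAs averaged at least 5 reads per library over all 21 libraries and shared 1 mean over the other groups. Tested members had medians of 18 reads over the 3 PC-9 libraries and 12 over the 3 gefitinib-resistant ones. In osimertinib-resistant, pCMV6 and FASN cells their medians were 3, 1 and 0. Recovery at the levels of the members was not measured. Alternatives were other filters and scalings, DESeq2 1.42.0, fits of the compared groups alone, the replicate number as a block, each library left out, and other read floors.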

Additional observations from a re-analysis of the deposited data

How the results depend on the processing

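The number of members depended on the floors: 100 with at least 10 reads in both lines, 860 with at most 1 read in NCI-H1975, and between 262 and 890 with 1 library of the rule left out. It was 262 without PC-9 replicate 2, 329 without NL20 replicate 2, and 816 and 890 without NCI-H1975 replicate 1 and 3. Members read again numbered 113, 78 and 51 in osimertinib-resistant, pCMV6 and FASN cells at 5 reads or more, and 56, 43 and 44 of the 100 members with at least 10 reads in both lines. The counts at 1 read or more, which were 311, 271 and 279, ran from 238 to 277, 211 to 220 and 209 to 230 with a library left out.

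Calls of gefitinib-resistant PC-9 over the 3 NCI-H1975 groups fell from 74 to 38 with a minimum count of 10, where 39 members were tested, and to 28 in a fit of these groups alone, where 31 were. They ran from 70 to 90 with a library left out. DESeq2 called 63. Between PC-9 cells with and without gefitinib resistance the count of 1 became 0 without the filter, 4 in the fit alone and 2 with DESeq2, and 0 to 1 with a library left out. For osimertinib-resistant against pCMV6 cells it became 0 without the filter, 2 with a minimum count of 10 and 0 in the fit alone, and 0 to 2 with a library left out. Against FASN cells the count of 4 became 0 without the filter, 1 with a minimum count of 10, 0 in the fit alone and 0 with DESeq2, and 0 to 3 with a library left out. The fits alone tested 2 and 1 members in these last comparisons, and FASN against pCMV6 could not be fitted so, as no member passed the filter. DESeq2 gave no adjusted p for 129 of the 138 members between PC-9 cells with and without gefitinib resistance, for 129 between FASN and pCMV6 cells, and for 113 and 117 between osimertinib-resistant and pCMV6 or FASN cells, so its counts there cover few members. Other scalings left every count as it was.

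With the replicate number as a block, calls of osimertinib-resistant over FASN cells went from 4 to 2, and those of gefitinib-resistant PC-9 over the NCI-H1975 groups from 74 to 72. The numbers did not pair the libraries: deviations of same-numbered libraries correlated between -0.031 and 0.049, and the best match had the same number in 15 of 60 cases. A count of 0 over the NCI-H1975 libraries allows a level of up to 8.82 CPM.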
